A study of Saccharomyces cerevisiae with 33 samples.

Results

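Gene expression of a yeast strain without *OPI1* was compared between nitrogen limitation (N-limitation) and carbon limitation (C-limitation). Of the 33 arrays in the series 9 came from *opi1Δ*, and they were taken by their sample titles: 3 from N-limited and 6 from C-limited chemostats. The CO2 production of C-limited *opi1Δ* oscillated, so 3 of the C-limited arrays were from maximum and 3 from minimum CO2, and both phases entered the comparison together. All 5449 genes with a probe set of 1 S. cerevisiae gene were tested. The strain was a prototrophic CEN.PK derivative of mating type a with a loxP-Kan-loxP cassette in place of *OPI1*. The reference was a prototrophic CEN.PK strain of the same mating type with *OPI1* intact, with 3 arrays under each limitation. All cultures were aerobic glucose chemostats at 1 dilution rate, on minimal medium with inositol and choline in both limitations. The strain is a single deletion, and C-limited *opi1Δ* had no steady CO2 level, so each of its arrays is a time point of an oscillation. The study treats the 3 arrays of a group as biological replicates. Neither the labels nor the methods say whether a maximum and a minimum array came from the same culture.

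Opi1 is a repressor of phospholipid genes that acts on the Ino2-Ino4 activator, which binds the promoters of genes such as *INO1*. When inositol and choline are plentiful, Opi1 keeps Ino2 from activating them. A yeast cell short of nitrogen relieves nitrogen catabolite repression, under which GATA factors (Gln3, Gat1, Dal80, Gzf3) set the level of permeases and catabolic enzymes for poor nitrogen sources. A cell short of glucose relieves glucose repression, which keeps genes for the use of ethanol, acetate, lactate and other sugars low while glucose is plentiful.

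The deletion was visible in every *opi1Δ* array. *OPI1* read 4.96, 4.98 and 5.07 (log2 signal intensity) in the N-limited arrays, 4.999, 5.003 and 4.986 at maximum CO2 and 5.05, 5.43 and 4.91 at minimum CO2. All 9 values lay under the background level of their array, which was 5.47 over all arrays, whereas the reference averaged 7.98 under N-limitation and 8.06 under C-limitation. The median signal of an *opi1Δ* array ranged from 7.14 to 7.37. The minimum CO2 arrays were not alike. Replicates 1 and 3 correlated at r = 0.9915 across genes (genes are not independent replicates), but at 0.8885 and 0.8971 with replicate 2, and 744 genes (13.7%) were at least 2-fold apart between replicates 1 and 2. Within the N-limited and the maximum CO2 group no pair was that far apart on more than 15 genes. *HAC1*, which encodes the transcription factor of the unfolded protein response and was picked after its values were seen, read 6.35, 9.39 and 6.45 at minimum CO2. N-limited reference replicate 1 also stood apart, for example at *STE2* (9.50 against 10.92 and 11.12).

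N-limited *opi1Δ* differed from C-limited *opi1Δ* at 1213 genes, 22.3% of those tested (limma, adjusted p below 0.01). Higher under N-limitation were 751 (13.8%) and lower 462 (8.48%), and 283 of the called genes moved by at least 2-fold. The split depended on scaling: 710 were higher and 586 lower with each array centred on its median, and 681 and 608 after quantile normalisation. The 3 N-limited arrays lay above all 6 C-limited arrays at 760 genes (13.9%) and below all of them at 342 (6.28%), and 577 (10.6%) and 217 (3.98%) of all genes were also called. Against maximum CO2 alone 1722 genes (31.6%) were called, 867 (15.9%) higher and 855 (15.7%) lower. Against minimum CO2 alone 1507 (27.7%) were called, 1012 (18.6%) higher and 495 (9.08%) lower, but 820 and 669 with each array centred on its median and 778 and 662 after quantile normalisation. Both phase comparisons use the same N-limited arrays. The counts of list members below are to be read beside the shares of all genes given here, since several lists lay near them. Without minimum CO2 replicate 2 the pooled count was 1856 genes, 944 higher and 912 lower, and without replicates 1 and 3 it was 1154, 826 higher and 328 lower.

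**Figure D1:**
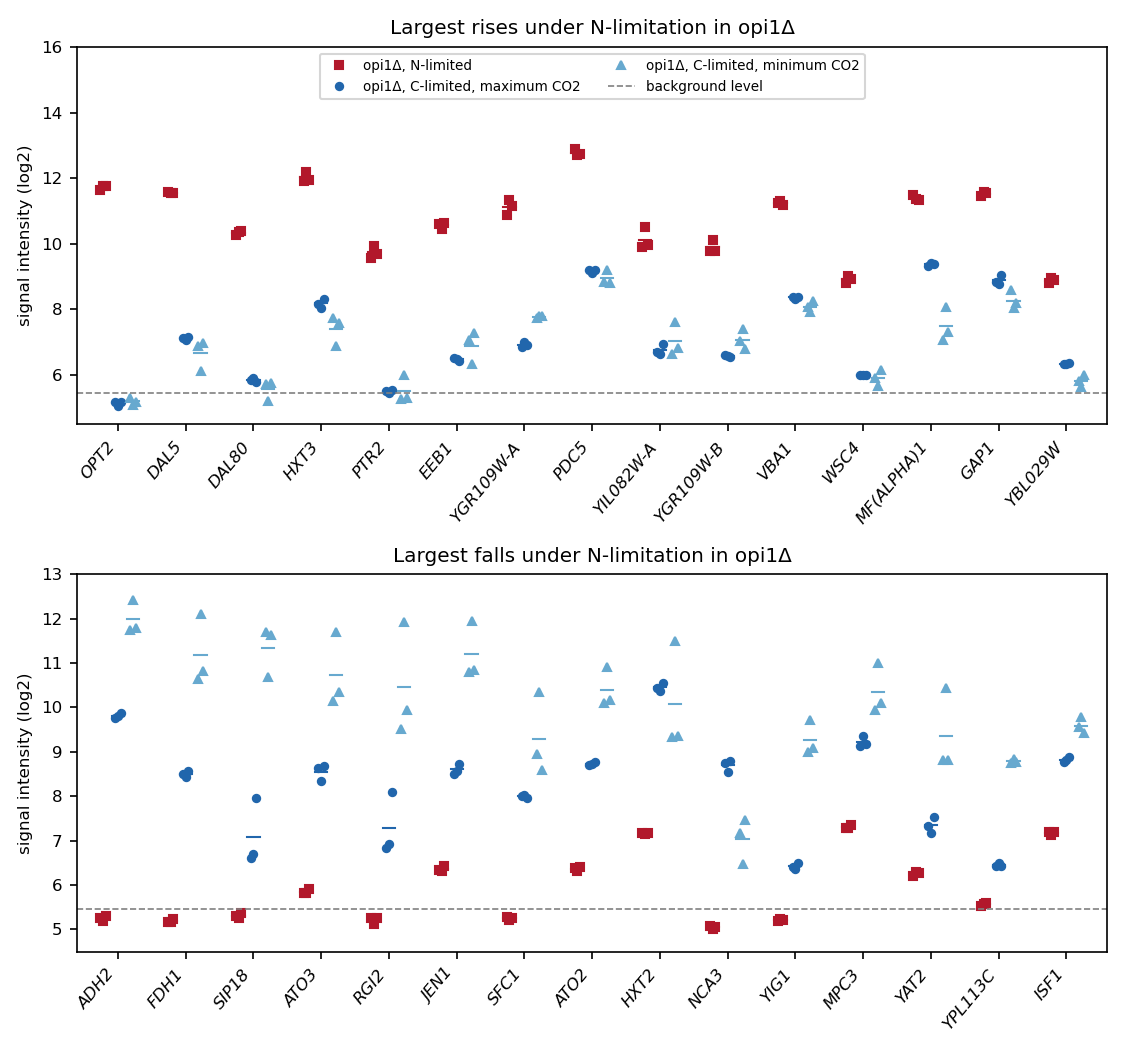
Signal intensity (log2) of the 15 genes with the largest rise (top) and the 15 with the largest fall (bottom) in N-limited against C-limited *opi1Δ*, each symbol 1 array, short lines the means of 3 arrays and the dashed line the background level of 5.47. All red N-limited squares lie above the blue C-limited symbols in the top panel and below them in the bottom panel, which the choice of genes fixed, and for genes such as *FDH1* and *RGI2* the C-limited symbols of minimum CO2 spread far above those of maximum CO2.

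Permeases for poor nitrogen sources were among the largest rises. *OPT2*, an oligopeptide transporter family member, read 11.63, 11.77 and 11.75 under N-limitation, 5.19, 5.07 and 5.19 at maximum CO2 and 5.32, 5.10 and 5.18 at minimum CO2. All 6 C-limited values were below background, so N-limited *OPT2* was at least 74.1-fold higher, with the C-limited arrays set at their background levels (adjusted p = 1.79e-27 from limma). *DAL5*, the allantoate permease, read 11.59, 11.54 and 11.55 under N-limitation against 7.15, 7.08 and 7.16 at maximum and 6.90, 6.12 and 6.99 at minimum CO2. It rose by 4.66 ± 0.21 (log2 difference with standard error), or 25.3-fold (adjusted p = 3.03e-15). *PTR2*, the di- and tripeptide transporter, read 9.58, 9.94 and 9.70 under N-limitation and 5.28 to 5.999 in the C-limited arrays, 3 of which were below background, a rise of 4.22 ± 0.28. The general amino acid permease *GAP1* went from 8.03 to 9.06 in the C-limited arrays to 11.45, 11.58 and 11.56, or 7.73-fold. These genes did not overlap between limitations, which the choice of the largest rises required. Over all genes the N-limited arrays lay above all C-limited arrays at 13.9%. Of the 21 permeases for poor nitrogen sources and ammonium 12 rose, 1 fell and 8 did not pass the test, with a median log2 difference of 0.83 against 0.02 over all genes.

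Enzymes that release nitrogen from poor sources also rose. Of 27 measured genes for the use of allantoin, urea, proline, arginine and peptides 19 were higher and 1 was lower, with a median difference of 1.04. *PUT1*, the mitochondrial proline oxidase, read 10.62, 10.76 and 10.50 under N-limitation against 8.76, 8.70 and 8.75 at maximum and 8.25, 7.40 and 8.17 at minimum CO2 (2.29 ± 0.22). *CPS1*, a vacuolar carboxypeptidase that frees amino acids from peptides, rose by 2.74 ± 0.15, and *DAL7*, a malate synthase of allantoin degradation, by 2.29 ± 0.22. *VBA1*, which carries basic amino acids into the vacuole, read 11.24, 11.32 and 11.17 under N-limitation and 7.93 to 8.40 in the C-limited arrays (3.01 ± 0.10).

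The regulators of this response moved too. *DAL80*, a GATA repressor whose own transcription is under nitrogen repression, read 10.26, 10.36 and 10.41 under N-limitation against 5.86, 5.91 and 5.79 at maximum CO2 and 5.74, 5.20 and 5.77 at minimum CO2, with 1 of the C-limited arrays below background. That was a rise of 4.63 ± 0.18 (adjusted p = 1.12e-16). The activator *GAT1* rose by 1.13 ± 0.11, with 10.16, 10.32 and 10.18 against 8.60 to 9.42. *GLN1*, glutamine synthetase, read 11.21, 11.06 and 11.13 under N-limitation, 10.92, 10.77 and 10.84 at maximum CO2 and 8.44, 9.50 and 8.47 at minimum CO2. Its rise of 1.31 ± 0.28 came mostly from the minimum phase: the difference was 0.29 ± 0.32 against maximum CO2 (adjusted p = 0.50) and 2.33 ± 0.32 against minimum CO2. Without minimum CO2 replicates 1 and 3 the *GLN1* difference was 0.96 (adjusted p = 0.018) and was not called. Of the 12 genes of ammonium assimilation and GATA control 7 were higher and 2 lower.

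Hexose transporters moved in both directions. *HXT3*, a low-affinity glucose transporter, read 11.93, 12.21 and 11.94 under N-limitation against 8.18, 8.05 and 8.33 at maximum CO2 and 7.75, 6.90 and 7.59 at minimum CO2, a rise of 18.7-fold (4.22 ± 0.32, adjusted p = 1.01e-10). *HXT1*, also of low affinity, rose by 1.44 ± 0.12 and *HXT4* by 1.74 ± 0.29. In the other direction *HXT2*, of high affinity, read 7.18, 7.15 and 7.18 under N-limitation and 9.34 to 11.51 in the C-limited arrays, a fall of 8.50-fold. *HXT7*, of high affinity, fell by 1.14 ± 0.16. *HXT5*, which is known to be expressed at slow growth, fell by 2.17 ± 0.20, and its C-limited arrays ranged from 6.39 to 7.52 at maximum CO2 and from 9.60 to 9.75 at minimum CO2. *MIG2*, a repressor that acts with glucose, read 7.92, 7.90 and 7.81 against 5.35 to 6.05, with 4 of the 6 C-limited arrays below background (2.32 ± 0.12). Of 23 measured hexose transporters and kinases 5 rose and 5 fell. HXT genes are near copies of one another, so probe sets may read more than 1 of them.

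Pyruvate decarboxylases for ethanol formation were higher. *PDC5*, the minor isoenzyme in glucose-grown cells, read 12.88, 12.70 and 12.75 under N-limitation against 9.19, 9.12 and 9.19 at maximum CO2 and 8.84, 9.21 and 8.80 at minimum CO2, or 13.2-fold (3.72 ± 0.27, adjusted p = 5.24e-11). Of the other large rises, *WSC4*, a cell wall stress sensor, read 8.82, 9.03 and 8.92 against 5.67 to 6.15 (2.97 ± 0.14), and *YBL029W*, which has no named function here, 8.81, 8.95 and 8.89 against 5.65 to 6.36 (2.80 ± 0.15). *PDC6* rose by 1.71 ± 0.24 and *PDC1*, the main isoenzyme, by 0.79 ± 0.10. *EEB1*, an acyltransferase that makes ethyl esters, read 10.59, 10.46 and 10.63 against 6.33 to 7.29 (3.87 ± 0.13). Of 20 measured genes of glycolysis and ethanol formation 6 rose and 1 fell.

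Genes for the use of ethanol and other non-fermentable carbon held the largest falls. *ADH2*, the alcohol dehydrogenase that oxidises ethanol, read 5.27, 5.19 and 5.30 under N-limitation against 9.76, 9.81 and 9.88 at maximum CO2 and 11.75, 12.41 and 11.80 at minimum CO2. With the N-limited arrays all below background, the fall was at least 42.8-fold (adjusted p = 1.35e-07). *FDH1*, formate dehydrogenase, read 5.16, 5.16 and 5.23 against 8.50, 8.42 and 8.57 at maximum and 10.65, 12.11 and 10.81 at minimum CO2, at least 20.6-fold lower (adjusted p = 9.13e-05). *JEN1*, the lactate and pyruvate permease, read 6.35, 6.31 and 6.42 under N-limitation and 8.51 to 11.95 in the C-limited arrays (-3.54 ± 0.29). *SFC1*, the mitochondrial succinate-fumarate carrier, was below background under N-limitation and at least 8.96-fold lower. Of the acetate and ammonium transporter family *ATO3* fell by 3.79 ± 0.62 and *ATO2* fell by 3.20 ± 0.28. *NCA3*, a gene of mitochondrial ATP synthase expression, was below background in the N-limited arrays and read 8.76, 8.54 and 8.79 at maximum CO2 and 7.17, 6.48 and 7.46 at minimum CO2, at least 5.21-fold higher under C-limitation. *MPC3*, a subunit of the mitochondrial pyruvate carrier, fell by 2.48 ± 0.22 and *YAT2*, a carnitine acetyltransferase, by 2.10 ± 0.28.

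Of 21 measured genes of gluconeogenesis, the glyoxylate cycle and the uptake of their substrates 15 fell and 1 rose, with a median difference of -1.33. The median was -0.76 against maximum CO2, where 8 fell and 2 rose, and -2.12 against minimum CO2, where 18 fell and 1 rose. The gene that rose was *MLS1*, a malate synthase, at 9.56, 9.37 and 9.65 against 7.59 to 8.31 (1.54 ± 0.16). Its paralog *DAL7* also rose, and whether the 2 probe sets read each other's transcript was not tested. Of 39 genes of the respiratory chain and ATP synthase 2 rose and 2 fell. *COX5B*, the subunit of cytochrome c oxidase known from low oxygen, rose by 1.29 ± 0.14, while *NDE2*, an external NADH dehydrogenase, fell by 1.64 ± 0.27, with -3.39 ± 0.32 against minimum CO2 and 0.11 ± 0.32 against maximum CO2.

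Among genes for other sugars *SUC2*, invertase, read 7.29, 7.23 and 7.21 under N-limitation, 9.005, 8.998 and 9.10 at maximum CO2 and 8.001, 10.36 and 7.92 at minimum CO2 (-1.66 ± 0.37). Of the 9 measured invertase and maltose genes 4 fell and none rose. Against minimum CO2 without its replicate 2, 3 were lower and 2 higher, with a median of -0.25. *MAL11*, a maltose permease, fell by 2.01 ± 0.30 and *MAL32*, a maltase, by 2.03 ± 0.26. MAL genes lie in repeated loci, so their probe sets may read several copies. With only the groups of the comparison in the fit *SUC2* (limma adjusted p = 0.036) and *MAL11* (0.0138) were not called. The t-test of the methods called no member of this list. Of 13 glycerol genes 1 rose, 2 fell and 10 did not pass the test, and *GUT1*, glycerol kinase, fell by 1.65 ± 0.32.

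**Figure D2:**
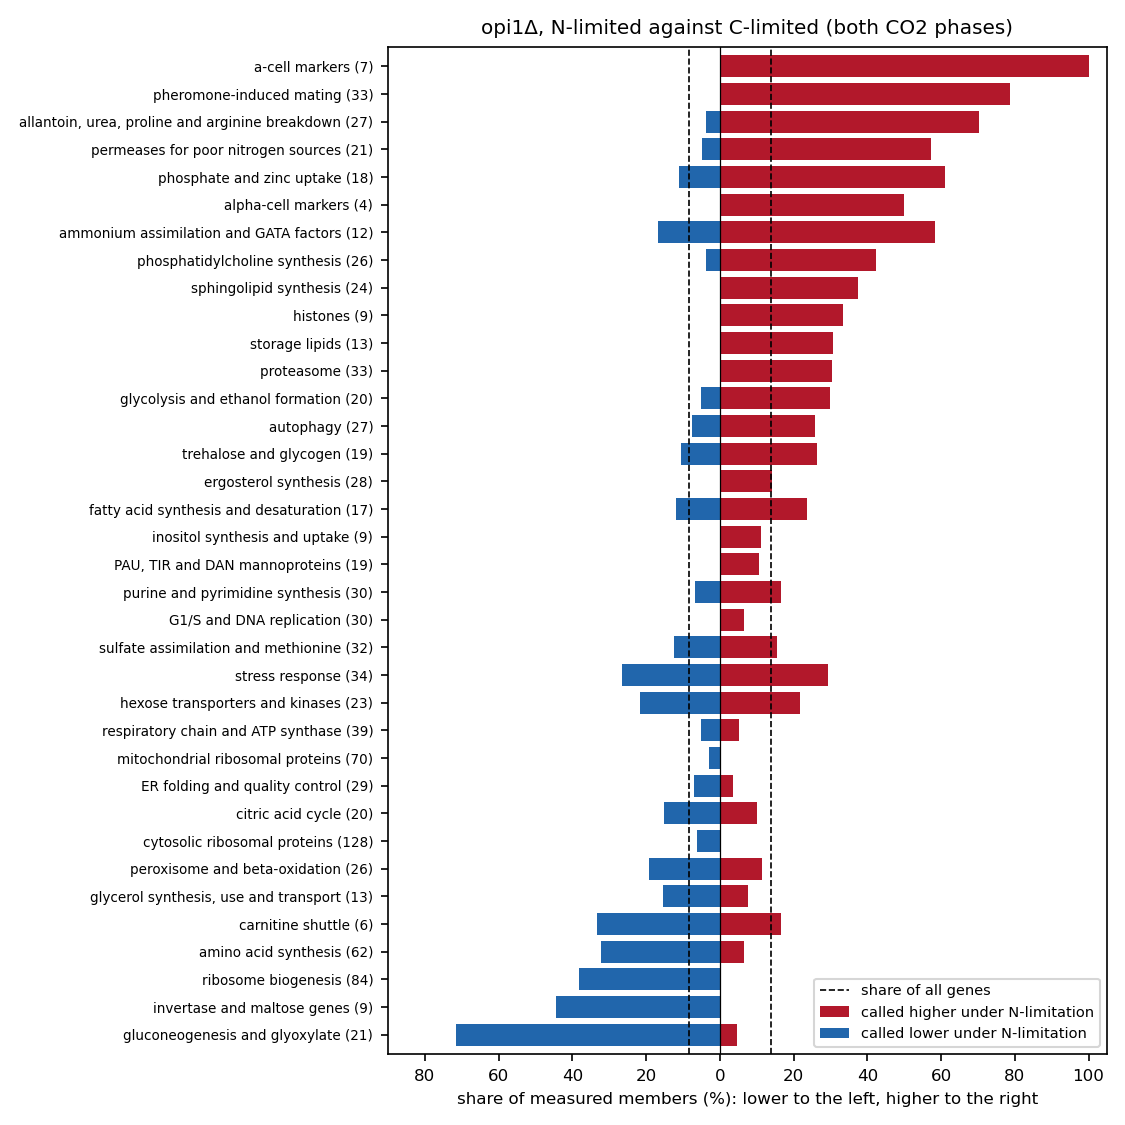
Share of the measured members of each gene list (number in parentheses) that was called higher (red, to the right) or lower (blue, to the left) in N-limited against C-limited *opi1Δ*, both CO2 phases together, with dashed lines at the share of all genes (13.8% higher, 8.48% lower). Mating, nitrogen source and phosphate and zinc genes extend far to the right of the line, and gluconeogenesis, maltose and ribosome biogenesis genes far to the left.

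Mating genes were higher under N-limitation. Of 33 measured genes of the pheromone response and mating 26 rose, none fell and 7 did not pass the test, and at 26 genes the N-limited arrays lay above all C-limited arrays. The median difference was 1.55, with 1.22 against maximum and 1.88 against minimum CO2, and 28 rose without minimum CO2 replicates 1 and 3. *FAR1*, which arrests the cell cycle in response to pheromone, read 9.50, 9.51 and 9.42 under N-limitation against 7.62, 7.58 and 7.71 at maximum CO2 and 6.15, 6.13 and 6.36 at minimum CO2 (2.55 ± 0.19, adjusted p = 6.3e-11). *PRM1*, which acts in the fusion of mating cells, read 8.42, 8.68 and 8.51 against 5.63 to 6.35 (2.48 ± 0.09). *FIG2*, a cell wall adhesin of mating cells, rose by 2.33 ± 0.08 and *FIG1*, a membrane protein of mating, by 2.32 ± 0.10, with 2 of the C-limited *FIG1* arrays below background.

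The 7 a-cell markers that define the strain's mating type were present, and all of them rose. This list overlaps with the 33 mating genes, for example at *STE6*, so the counts are not separate. *STE2*, the receptor for alpha-factor, read 11.39, 11.48 and 11.44 under N-limitation, 10.39, 10.31 and 10.37 at maximum CO2 and 8.06, 8.68 and 8.17 at minimum CO2 (2.11 ± 0.33). *BAR1*, the protease that degrades alpha-factor, rose by 2.19 ± 0.25. The a-factor genes *MFA1* and *MFA2* rose by 1.79 ± 0.25 and 1.91 ± 0.25. *STE6*, which exports a-factor, rose by 1.55 ± 0.17, *AGA2*, an agglutinin subunit, by 1.81 ± 0.21 and *ASG7* by 1.90 ± 0.09. Among the alpha-cell markers, *MF(ALPHA)2* was below background in all 9 arrays and *STE3*, the a-factor receptor, read 5.26 to 6.11. Of the 4 alpha-cell markers only 1 averaged below background over the *opi1Δ* arrays, and 2 were called higher. *MF(ALPHA)1*, which encodes the alpha-factor precursor of the opposite mating type, rose most. It read 11.49, 11.38 and 11.33 under N-limitation, 9.34, 9.41 and 9.40 at maximum CO2 and 7.09, 8.07 and 7.32 at minimum CO2, or 7.81-fold higher (2.97 ± 0.21, adjusted p = 4.18e-11). *SAG1*, the alpha-agglutinin, was the other marker called higher and rose by 0.47 ± 0.09. Whether cells of the other mating type or changed transcription gave the *MF(ALPHA)1* signal was not tested.

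The genes of the Ty3 retrotransposon, whose promoters are known to respond to pheromone, were high in the same arrays. *YGR109W-A*, a Ty3 gag gene, read 10.89, 11.34 and 11.15 under N-limitation against 6.85, 7.002 and 6.92 at maximum CO2 and 7.75, 7.80 and 7.81 at minimum CO2, or 13.7-fold (3.77 ± 0.21, adjusted p = 2.14e-13). *YIL082W-A* and *YGR109W-B*, both gag-pol genes, rose by 3.23 ± 0.17 and 3.06 ± 0.13. Ty3 copies are near identical, so these probe sets cannot be told apart by copy.

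**Figure D3:**
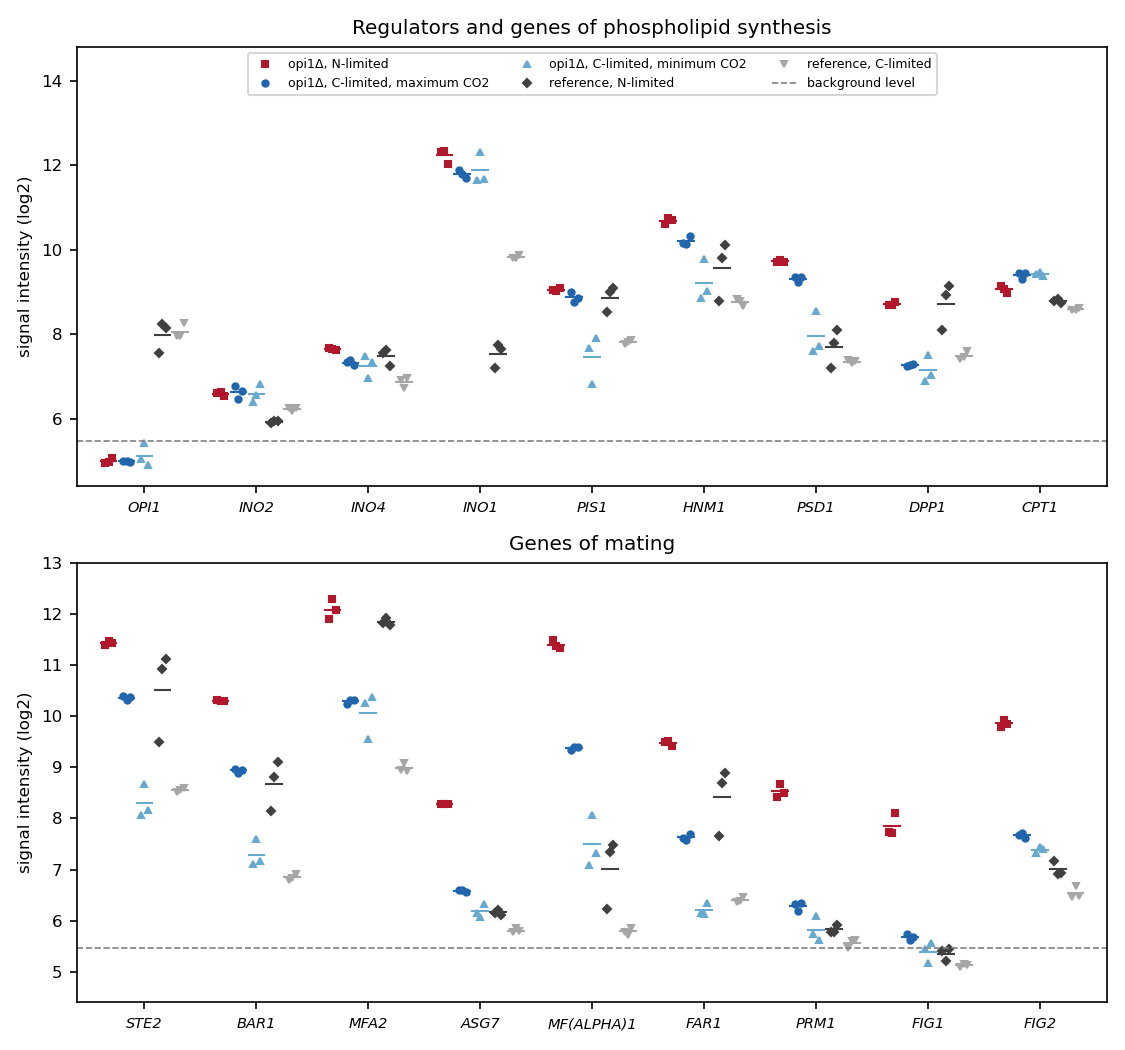
Signal intensity (log2) of phospholipid genes with their regulators (top) and of mating genes (bottom) in *opi1Δ* and the reference, each symbol 1 array, short lines the means of 3 arrays and the dashed line the background level of 5.47. The 9 *OPI1* values of *opi1Δ* lie under the line, *INO1* of the reference averages 7.54 under N-limitation against 9.83 under C-limitation while all *opi1Δ* arrays read at least 11.66, and the N-limited *opi1Δ* squares are the highest of each mating gene among the *opi1Δ* arrays.

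*INO1* stayed high in both limitations without *OPI1*. *INO1*, which encodes inositol-3-phosphate synthase, read 12.31, 12.34 and 12.04 under N-limitation, 11.90, 11.79 and 11.70 at maximum CO2 and 11.66, 12.31 and 11.67 at minimum CO2. The limitations overlapped, and the difference of 0.40 ± 0.15 was not called (adjusted p = 0.0499 from limma). Without minimum CO2 replicate 2 the *INO1* difference was 0.50 and was called (adjusted p = 0.00568). An exact two-sided permutation test of the 3 against 6 arrays gave p = 0.0476, adjusted over 4 genes p = 0.0952, where 0.0238 is the smallest p the design allows. *INO2* read 6.53 to 6.63 under N-limitation and 6.40 to 6.82 under C-limitation (exact permutation p = 0.83). *INO4* read 7.67, 7.64 and 7.62 under N-limitation and 6.96 to 7.48 under C-limitation, and its difference of 0.35 ± 0.26 was not called by limma (adjusted p = 0.316). The exact permutation test for *INO4* gave 0.0238 and 0.0952 when adjusted over the 4 genes.

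Of 26 genes on the routes to phosphatidylcholine 11 rose and 1 fell, with a median difference of 0.41. Against maximum CO2 6 were higher and 1 lower, and against minimum CO2 14 were higher and 2 lower. *PSD1*, a phosphatidylserine decarboxylase, read 9.71, 9.76 and 9.71 under N-limitation, 9.35, 9.24 and 9.36 at maximum CO2 and 7.60, 8.54 and 7.72 at minimum CO2 (1.09 ± 0.18). *DPP1*, a diacylglycerol pyrophosphate phosphatase, read 8.68, 8.68 and 8.76 against 6.89 to 7.52 (1.499 ± 0.17). *PIS1*, phosphatidylinositol synthase, rose by 0.88 ± 0.21 and was the only called gene among the 9 of inositol synthesis and uptake, a call it lost without N-limited replicate 3 (0.86, adjusted p = 0.0107 from limma). *HNM1*, the choline permease, rose by 0.98 ± 0.22, but by 0.70 without minimum CO2 replicates 1 and 3 (adjusted p = 0.024), where it was not called. For both genes the rise lay against minimum CO2: *PIS1* differed by 0.18 ± 0.24 and *HNM1* by 0.48 ± 0.25 from maximum CO2. *CPT1*, a cholinephosphotransferase, was lower by a small and even amount, at 9.15, 9.08 and 8.99 against 9.32 to 9.48 (-0.35 ± 0.06, adjusted p = 1.23e-04).

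Of 24 sphingolipid genes 9 rose and none fell. Against maximum CO2 6 were higher and 2 lower, with a median difference of 0.08. Against minimum CO2 13 were higher and none lower, with a median of 0.46. Among those that rose was *SCS7*, a ceramide hydroxylase, at 9.64, 9.61 and 9.78 against 8.54 to 8.57 at maximum CO2 and 7.78 to 7.94 at minimum CO2 (1.47 ± 0.12). Of 17 fatty acid genes 4 rose and 2 fell. *ELO1* and *IFA38*, of fatty acid elongation, rose by 0.66 ± 0.11 and 0.83 ± 0.08. *OLE1*, the fatty acid desaturase, fell by 0.78 ± 0.16, with -1.37 ± 0.19 against minimum CO2 and -0.18 ± 0.19 against maximum CO2 (adjusted p = 0.46). Of 13 storage lipid genes 4 rose, among them *ARE2*, a sterol acyltransferase (1.45 ± 0.27). The share of ergosterol genes that rose was near the 13.8% of all genes. Of 28 ergosterol genes 4 rose and none fell, but none rose and 1 fell without minimum CO2 replicates 1 and 3. *ERG20*, farnesyl diphosphate synthase, rose by 1.45 ± 0.35, or by 0.93 without those arrays (adjusted p = 0.056), and its call was lost without N-limited replicate 1 (1.41, adjusted p = 0.014) or replicate 3 (1.44, adjusted p = 0.0122).

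Many genes lay between the CO2 phases, with a larger share in some lists of growth and stress genes than in others. The N-limited arrays were above all maximum CO2 and below all minimum CO2 arrays at 310 genes (5.69%), and the reverse held at 526 genes (9.65%).

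**Figure D4:**
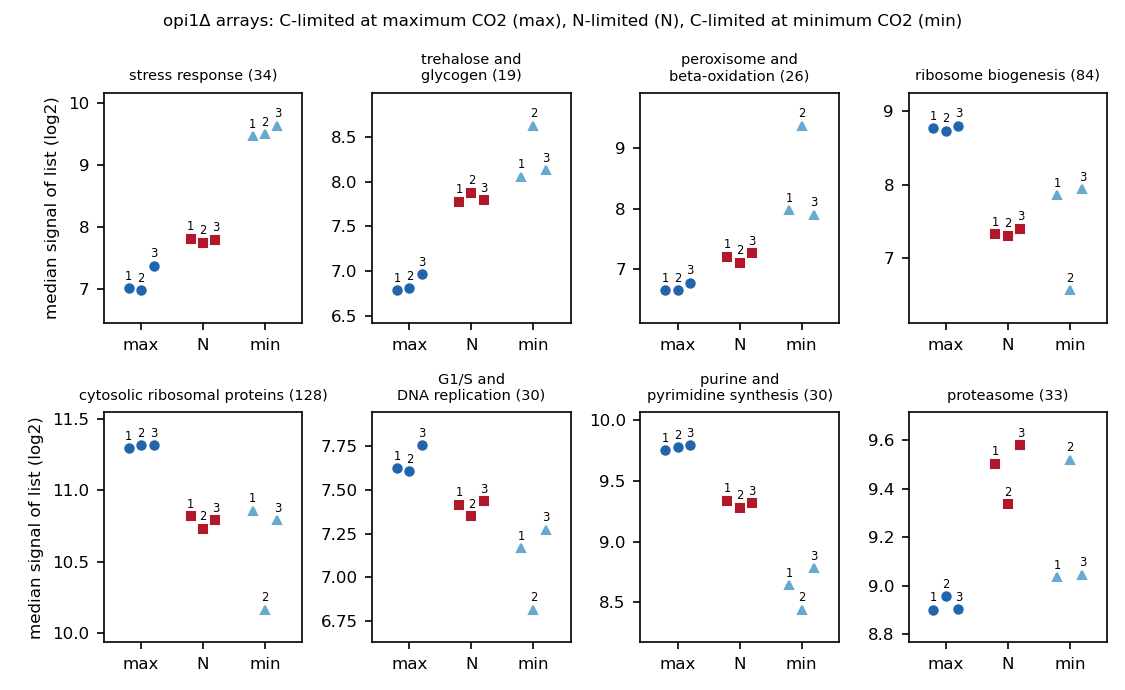
Median signal intensity (log2) over the measured members of 8 gene lists (number in parentheses) in each *opi1Δ* array, with replicate numbers beside the symbols: C-limited at maximum CO2 (max), N-limited (N) and C-limited at minimum CO2 (min), on a separate scale in each panel. For stress genes the N-limited arrays lie between the phases, and for ribosome biogenesis genes minimum CO2 replicate 2 lies below and replicates 1 and 3 above the N-limited arrays.

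Of 34 measured stress response genes the N-limited arrays lay above maximum and below minimum CO2 at 18. Against maximum CO2 20 were higher and 1 was lower, with a median difference of 0.98, and against minimum CO2 2 were higher and 20 lower, with a median of -1.03. In the pooled comparison 10 rose and 9 fell. The median signal of the list was 7.75 to 7.81 in the N-limited arrays, 6.98 to 7.37 at maximum CO2 and 9.46 to 9.63 at minimum CO2. *DDR48*, a DNA damage-responsive gene, read 10.13, 10.09 and 10.04 under N-limitation, 8.17, 8.16 and 8.19 at maximum CO2 and 10.34, 9.54 and 10.16 at minimum CO2. *SIP18*, a hydrophilin of drying cells, was below background in all N-limited arrays, at 6.600, 6.69 and 7.96 at maximum CO2 and at 11.71, 10.68 and 11.63 at minimum CO2, a fall of at least 13.3-fold. *SSA3*, a stress-induced chaperone of the Hsp70 family, fell by 2.45 ± 0.42. *MSN4*, an activator of stress genes, went the other way in both phases and read 7.57, 7.71 and 7.59 against 6.07 to 6.45 (1.34 ± 0.11). *RGI2*, a gene of respiratory growth, was at least 10.5-fold lower under N-limitation.

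Of 19 trehalose and glycogen genes 12 were higher than at maximum CO2 and 2 higher and 7 lower than at minimum CO2, and 8 lay between. Without minimum CO2 replicates 1 and 3, none was higher and 11 were lower than at minimum CO2, and without replicate 2 the pooled count of higher genes was 10 in place of 5. *GPH1*, glycogen phosphorylase, was higher than in either phase, at 10.16, 10.17 and 10.13 against 7.01, 7.27 and 7.21 at maximum CO2 and 9.12, 9.94 and 9.005 at minimum CO2 (1.89 ± 0.16). Of 26 peroxisomal and beta-oxidation genes 3 were higher than at maximum CO2 and none lower, while 2 were higher and 14 lower than at minimum CO2. In the pooled comparison 5 of these genes fell, or 12 without minimum CO2 replicates 1 and 3 and 3 without replicate 2. *FAA1*, a fatty acyl-CoA synthetase, read 10.04, 10.10 and 10.09 under N-limitation, 7.58, 7.58 and 7.72 at maximum CO2 and 9.52, 10.15 and 9.48 at minimum CO2 (1.40 ± 0.15).

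Ribosome assembly genes were lower than at maximum CO2. Of 84 ribosome biogenesis genes 78 were lower than at maximum CO2 and none higher, with a median difference of -1.31, and 2 were higher and none lower than at minimum CO2. The pooled comparison called 32 of them lower, a count that was 74 without minimum CO2 replicate 2 and 2 without replicates 1 and 3. With each array centred on its median it was 48. Against minimum CO2 the direction turned with the arrays used: 1 was higher and 34 lower without replicate 2, and 29 were higher and none lower without replicates 1 and 3. At 8 of the 84 genes the N-limited arrays lay below all maximum and above all minimum CO2 arrays, near the 9.65% of all genes. *HAS1*, an RNA helicase of ribosome assembly, read 7.22, 6.92 and 7.08 under N-limitation, 9.19, 8.91 and 9.05 at maximum CO2 and 7.73, 6.54 and 7.72 at minimum CO2. Of 128 measured cytosolic ribosomal protein genes 64 were lower than at maximum CO2 and none higher, 23 were higher than at minimum CO2 and none lower, and 43 lay below all maximum and above all minimum CO2 arrays. The counts against minimum CO2 were 17 higher and 9 lower without replicate 2, and 80 higher and none lower without replicates 1 and 3. In the pooled comparison 8 fell, 47 without minimum CO2 replicate 2, and 2 without replicates 1 and 3, where 4 rose. *RPL9A* read 9.52, 9.23 and 9.13 under N-limitation, 10.83, 10.74 and 10.80 at maximum CO2 and 10.37, 8.87 and 9.89 at minimum CO2, and many ribosomal protein genes have near-identical copies. Of 70 mitochondrial ribosomal protein genes 2 fell and none rose, with 13 lower and 1 higher than at maximum CO2 and 2 lower than at minimum CO2.

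Of 30 measured genes of the G1/S transition and DNA replication 14 were higher than at minimum CO2 and none lower, 1 was lower than at maximum CO2 and none higher, and 12 lay between. *CLN2*, a G1 cyclin, read 8.53, 8.58 and 8.34 under N-limitation, 8.28, 8.10 and 8.27 at maximum CO2 and 7.28, 7.41 and 7.13 at minimum CO2 (0.74 ± 0.11). Of 30 purine and pyrimidine genes 13 were lower and 4 higher than at maximum CO2, and 1 was lower and 11 higher than at minimum CO2, or 20 higher without its replicates 1 and 3. In the pooled comparison 5 rose and 2 fell, but 4 rose and 11 fell without minimum CO2 replicate 2. *ADE1*, of purine synthesis, lay between the phases, at 9.85, 9.78 and 9.86 against 10.60 to 10.63 at maximum CO2 and 8.16 to 8.46 at minimum CO2. *URA6*, uridylate kinase, read 7.92, 7.65 and 7.90 under N-limitation against 9.45 to 9.58 at maximum CO2 and 7.65 to 7.81 at minimum CO2. *URA8*, a CTP synthase, was above both, at 9.76, 10.07 and 9.98 against 7.83 to 8.96 (1.65 ± 0.10).

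Of 62 measured amino acid synthesis genes 20 fell, 4 rose and 38 did not pass the test, with a median difference of -0.32. Against maximum CO2 28 were lower and 3 higher. Against minimum CO2 12 were lower and 7 higher, with a median of -0.07, and this balance turned with the arrays used: 21 were lower and 9 higher without replicate 2, and 9 lower and 12 higher without replicates 1 and 3. Without minimum CO2 replicate 2 the pooled comparison had 26 lower and 7 higher. *LYS20*, the first enzyme of lysine synthesis, read 8.87, 9.03 and 8.93 under N-limitation, 10.42, 10.44 and 10.56 at maximum CO2 and 11.06, 9.38 and 10.87 at minimum CO2 (-1.51 ± 0.22). *LEU9*, a 2-isopropylmalate synthase of leucine synthesis, fell by 1.20 ± 0.13. *ARG4*, the last enzyme of arginine synthesis, rose by 0.87 ± 0.19 (0.60 and adjusted p = 0.021 without minimum CO2 replicates 1 and 3, not called). In methionine metabolism 5 of 32 genes rose and 4 fell, with 2 higher and 6 lower than at maximum CO2 and 15 higher and 3 lower than at minimum CO2 (13 and 5 without replicate 2). In the pooled comparison the permeases *SAM3* for S-adenosylmethionine and *MMP1* for S-methylmethionine moved apart, by 1.34 ± 0.13 and -1.50 ± 0.20.

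Of 18 measured phosphate and zinc genes 11 rose and 2 fell, with 7 higher and 2 lower than at maximum CO2 and 11 higher and 1 lower than at minimum CO2. *VTC3*, a subunit of the vacuolar polyphosphate polymerase, read 8.35, 8.36 and 8.40 under N-limitation against 7.11 to 7.79 (0.90 ± 0.09), and *ZRT1*, the high-affinity zinc transporter, rose by 0.75 ± 0.16. *PHO89*, a sodium-coupled phosphate transporter, read 6.49, 6.53 and 6.63 against 8.99, 8.90 and 9.26 at maximum CO2 and 7.91, 7.40 and 7.75 at minimum CO2, a fall of 3.53-fold. Of 33 proteasome genes 10 rose and none fell, or 19 without minimum CO2 replicate 2. Against maximum CO2 17 of them were higher and none lower, and against minimum CO2 1 was higher and 1 lower, or 11 and 1 without replicate 2. Of 27 autophagy genes 7 rose and 2 fell. Against maximum CO2 13 autophagy genes were higher and none lower, and against minimum CO2 2 were higher and 3 lower, or 5 and 10 without replicate 2. *ATG19*, a receptor of the pathway from cytoplasm to vacuole, read 8.54, 8.33 and 8.53 under N-limitation, 7.02, 7.06 and 6.83 at maximum CO2 and 7.75, 7.95 and 7.87 at minimum CO2 (1.05 ± 0.11). *ATG8*, which marks autophagosomes, read 9.07, 9.20 and 8.97 under N-limitation, 7.16, 7.25 and 7.34 at maximum CO2 and 9.64, 8.96 and 9.51 at minimum CO2, so its rise of 0.77 ± 0.12 lay against maximum CO2. Genes of folding and quality control in the endoplasmic reticulum had few calls: of 29, 1 rose and 2 fell. The 20 citric acid cycle genes had 2 higher and 3 lower. Their median difference was -0.06, or -0.37 without minimum CO2 replicates 1 and 3. The 6 carnitine shuttle genes had 1 higher and 2 lower. Of 9 measured histone genes 3 rose.

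The response of *opi1Δ* differed from that of the reference at 187 genes (3.43%). The test compared the N-limited minus C-limited difference of *opi1Δ*, both phases together, with that of the reference in the same fit. It was more positive in *opi1Δ* at 146 genes (2.68%) and more negative at 41 (0.752%), but at 135 and 71 after quantile normalisation. The reference alone changed at 1268 genes (23.3%), 799 (14.7%) higher and 469 (8.61%) lower. Without minimum CO2 replicate 2 the count was 997, 392 more positive and 605 more negative. With the maximum CO2 arrays alone as C-limited *opi1Δ* it was 849, and with the minimum CO2 arrays alone 258.

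**Figure D5:**
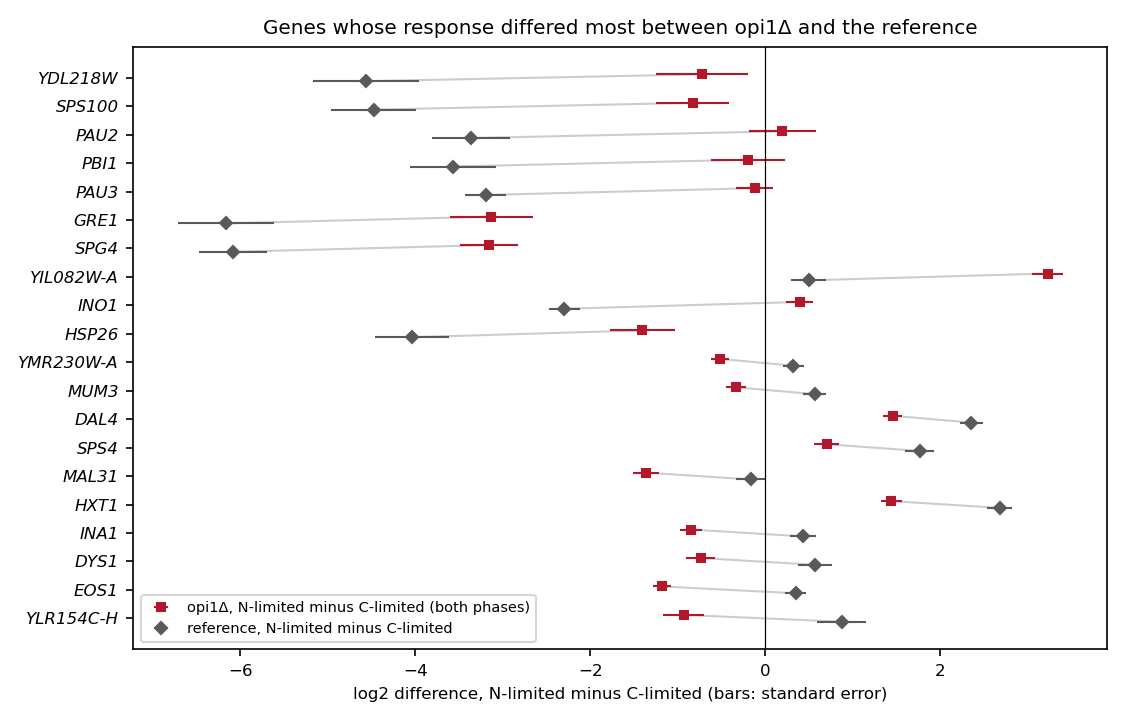
N-limited minus C-limited log2 difference with its standard error in *opi1Δ* (red squares, both CO2 phases) and in the reference (grey diamonds) for the 10 genes with the most positive and the 10 with the most negative difference between both responses among the 187 called. *INO1* fell by 2.30 in the reference and differed by 0.40 in *opi1Δ*, and *YIL082W-A* lies to the right at 3.23 in *opi1Δ*.

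*INO1* was among these genes. In the reference it fell by 2.30 under N-limitation, from a mean of 9.83 to 7.54, so the responses differed by 2.69 ± 0.24 (adjusted p = 1.45e-08). Of the 34 stress genes, the difference was more positive in *opi1Δ* at 20 and more negative at none. This depended on the phase: with the maximum CO2 arrays alone as C-limited *opi1Δ* it was more positive at 32 and more negative at none, and with the minimum CO2 arrays alone at 1 and 1. In the reference 22 of the 34 fell and 2 rose, beside 20 and 2 in *opi1Δ* against minimum CO2. The pooled count was 26 without minimum CO2 replicate 2, 16 after quantile normalisation and 14 without minimum CO2 replicates 1 and 3 and N-limited reference replicate 1. *HSP26*, a small heat shock protein, averaged 12.33 in the C-limited and 8.30 in the N-limited reference, whereas *opi1Δ* read 9.47, 9.43 and 9.55 under N-limitation, 9.55, 9.43 and 10.13 at maximum CO2 and 11.84, 12.54 and 11.83 at minimum CO2. Its responses differed by 2.63 ± 0.57 (adjusted p = 0.00394), and by 1.45 with the minimum CO2 arrays alone (adjusted p = 0.083). The *HSP26* call was lost without N-limited *opi1Δ* replicate 1 or 3, C-limited reference replicate 1 or 2, or N-limited reference replicate 1, at 2.07 to 2.64 (adjusted p = 0.0111 to 0.0183). *UGA2*, of the breakdown of gamma-aminobutyrate, rose by 1.04 ± 0.08 in *opi1Δ* and differed between strains by 1.28 ± 0.13. *SPG4*, a gene of stationary phase, fell by 3.16 ± 0.34 in *opi1Δ*, and its difference between responses of 2.93 ± 0.51 was 0.81 with the minimum CO2 arrays alone (adjusted p = 0.28). With those arrays alone the difference between responses was not called for *HXT5* (0.90, adjusted p = 0.0477, against 2.35 with both phases), *DDR48* (0.17, adjusted p = 0.571, against 1.09) or *ATG19* (0.42, adjusted p = 0.087, against 0.86).

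Of 19 measured PAU, TIR and DAN genes, which encode cell wall mannoproteins, 8 differed between strains, all more positive in *opi1Δ*, and 10 fell and 1 rose in the reference. *PAU3* read 5.78 to 6.23 in all *opi1Δ* arrays and averaged 9.23 in the C-limited and 6.03 in the N-limited reference, a difference between responses of 3.07 ± 0.32 (adjusted p = 2e-07). *PAU2* differed by 3.56 ± 0.59 and *TIR4*, a mannoprotein of cells without oxygen, by 1.81 ± 0.13. The PAU genes are near copies whose probe sets may read several of them. *PBI1*, *SPS100* and *YDL218W* also read higher in the C-limited reference, at 9.37, 10.38 and 9.79, against 5.60 to 5.91, 5.52 to 7.69 and 5.20 to 6.87 in C-limited *opi1Δ*. *SPS100* was not level within *opi1Δ*: without minimum CO2 replicate 2 it was called lower under N-limitation (-1.19, adjusted p = 0.00926 from limma).

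Mating genes differed at 11 of 33, all more positive in *opi1Δ*, while 17 of the 33 rose and 3 fell in the reference. *PRM1* averaged 5.83 in the N-limited and 5.56 in the C-limited reference, and its responses differed by 2.21 ± 0.14 (adjusted p = 6.9e-11). *FIG1* differed by 2.09 ± 0.16, *FIG2* by 1.87 ± 0.13 and *ASG7* by 1.55 ± 0.14. *STE2* rose in both strains and its difference was 0.15 ± 0.50. The 3 Ty3 genes named above differed by 1.83 ± 0.32 (*YGR109W-A*), 2.73 ± 0.27 (*YIL082W-A*) and 2.39 ± 0.19 (*YGR109W-B*). *MF(ALPHA)1* averaged 7.02 in the N-limited and 5.79 in the C-limited reference and differed by 1.74 ± 0.32 (adjusted p = 0.00102), or by 0.79 with the maximum CO2 arrays alone (adjusted p = 0.083).

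Of the 21 permeases 1 was more positive and 1 more negative in *opi1Δ*, or 1 and 4 without minimum CO2 replicate 2. Of the 27 breakdown genes 2 were more positive and none more negative, or 8 and 2 without that array. *OPT2* rose by 6.54 in *opi1Δ* and 6.73 in the reference, a difference of -0.19 ± 0.13, *DAL5* by 4.66 and 5.25 (-0.59 ± 0.32) and *DAL80* by 4.63 and 5.12 (-0.49 ± 0.27). *DAL4*, the allantoin permease, rose by 1.46 ± 0.11 in *opi1Δ* and by 2.36 in the reference and was called (-0.90 ± 0.17, adjusted p = 0.00108), but not with the minimum CO2 arrays alone (-0.69, adjusted p = 0.013). *HXT1* rose by less in *opi1Δ* (-1.24 ± 0.19, adjusted p = 1.05e-04). *MAL31*, a maltose permease, fell in *opi1Δ* by 1.36 ± 0.15 and its response differed from that of the reference by -1.20 ± 0.22. With the maximum CO2 arrays alone the *MAL31* difference was -0.59 (adjusted p = 0.0601), and with only the groups of the comparison in the fit its adjusted p was 0.0135, so that it was not called in either. In that smaller fit *MF(ALPHA)1* (limma adjusted p = 0.015), *ATG19* (0.0242) and *DAL4* (0.0266) were not called either. *EOS1*, of N-glycosylation and oxidative stress tolerance, read 6.97, 7.18 and 7.03 in N-limited against 8.07 to 8.45 in C-limited *opi1Δ*, and averaged 8.31 and 7.97 in the N- and C-limited reference (-1.53 ± 0.16, adjusted p = 2.61e-07).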

How the data were processed

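RNA of 33 chemostat samples was hybridised to Affymetrix Yeast Genome 2.0 arrays, 3 for each of 11 groups. The authors normalised the arrays together with PLIER and deposited a table of processed values, taken here as log2 signal intensity from their range of 4.70 to 13.48, since the table does not state its scale. The labels and the methods name different RNA kits.

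Of 10928 probe sets 5498 were paired with 1 S. cerevisiae gene each, which gave 5449 genes, and the brightest probe set was used for the 47 genes with several. The background level was the 95th percentile (5.47) of 1746 named probe sets outside the S. cerevisiae gene table. With a group below it on all arrays, folds are bounds that take the higher of the array's background and the gene's own value. No sequences were read.

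A model with 1 coefficient per group was fitted to all 33 arrays with limma 3.58.1 in R 4.3.3 (residual degrees of freedom 22) and tested on simulated data. Benjamini-Hochberg adjustment ran over all 5449 genes, and genes below an adjusted p of 0.01, the threshold of the methods, were called. Single values of 4 genes had an exact permutation test (scipy 1.17.1, Python 3.11.15). The number of arrays limits the precision.

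The members and lists were chosen with earlier results of these data known. Genes were named from these sets: *OPI1*, *INO1*, *INO2* and *INO4*, the 15 largest rises and falls called against both phases without overlap, up to 4 called members per list and direction, the 10 largest differences between strains in each direction, and the cell type markers. The text does not name every member of these sets, and it names only some of the 10 most negative differences between strains. Alternatives covered scaling, an added constant, low genes, arrays in the fit, probe sets, thresholds, other tests, the replicate block and arrays left out.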

Additional observations from a re-analysis of the deposited data

Results flagged for a closer look

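The N-limited minus C-limited response differed between *opi1Δ* and the reference at 187 genes by a test of the difference itself (limma, adjusted p below 0.01). The values below are the *opi1Δ* minus the reference response on the log2 scale, for the genes named in the report. The more positive ones were *YDL218W* (3.84), *SPS100* (3.65), *PAU2* (3.56), *PBI1* (3.37), *PAU3* (3.07), *SPG4* (2.93), *INO1* (2.69), *HSP26* (2.63) and *HXT5* (2.35). The Ty3 genes *YIL082W-A* (2.73), *YGR109W-B* (2.39) and *YGR109W-A* (1.83) were also more positive. Among mating genes these were *PRM1* (2.21), *FIG1* (2.09), *FIG2* (1.87), *MF(ALPHA)1* (1.74) and *ASG7* (1.55). *TIR4* (1.81), *UGA2* (1.28), *DDR48* (1.09) and *ATG19* (0.86) followed. The more negative ones were *EOS1* (-1.53), *HXT1* (-1.24), *MAL31* (-1.20), *DAL4* (-0.90) and *CPT1* (-0.54). With the minimum CO2 arrays alone as C-limited *opi1Δ*, *HXT5* (0.90), *DDR48* (0.17), *ATG19* (0.42), *HSP26* (1.45), *SPG4* (0.81), *DAL4* (-0.69) and *YDL218W* (3.38) were not called, and with the maximum CO2 arrays alone *MAL31* (-0.59) and *MF(ALPHA)1* (0.79) were not called. With only the groups of the comparison in the fit *MAL31*, *MF(ALPHA)1*, *ATG19* and *DAL4* were not called.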

How the results depend on the processing

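The pooled count of 1213 genes was 1831 at an adjusted p below 0.05, 694 below 0.001, 283 with at least 2-fold and 201 by the methods' t-test, and 819 to 1856 with 1 array left out. Against maximum CO2 the count of 1722 was 3265 with only its groups in the fit, 1143 below 0.001 and 567 with 2-fold, and 1363 to 1431 with 1 array left out. Against minimum CO2 the count of 1507 was 622 with only its groups in the fit, 948 below 0.001, 460 with 2-fold and 344 by the methods' t-test, and 1135 to 2106 with 1 array left out. The difference between strains (187) was 576 below 0.05, 79 below 0.001, 111 with 2-fold and 849 with maximum CO2 alone, and 121 (without N-limited replicate 3) to 997 (without minimum CO2 replicate 2) with 1 array left out. By the methods' t-test the counts of higher members were 13 for mating genes (26 by limma), 8 for permeases (12), 10 for breakdown genes (19), 4 for a-cell markers (7), 1 for phosphatidylcholine (11), 1 for sphingolipid (9) and 2 for phosphate and zinc genes (11). Its counts of lower members were 1 for gluconeogenesis (15), 3 for amino acid synthesis (20) and 0 for ribosome biogenesis genes (32). For these counts the t-test pooled the C-limited arrays of both CO2 phases, whereas the limma model had a coefficient for each phase. The paper kept only the minimum CO2 samples to represent C-limited *opi1Δ*. Against maximum CO2 alone the t-test called 2429 genes, beside 1722 by limma, while against minimum CO2 alone it called fewer than limma. Whether the pooling gave the lower t-test counts of list members was not tested. The replicate numbers showed no steady pairing: deviations of same-numbered N-limited and maximum CO2 arrays correlated at 0.512, -0.205 and -0.229. Same-numbered maximum and minimum CO2 arrays correlated at 0.092, -0.169 and -0.214. With 3 arrays per group these values could not decide whether a maximum and a minimum array shared a culture. Deviations were also correlated between the uneven groups of both strains. Minimum CO2 replicates 1 and 3 correlated at 0.635 and 0.523 with N-limited reference replicate 1, and these arrays were left out together above. Minimum CO2 replicate 2 correlated at 0.484 and 0.637 with N-limited reference replicates 2 and 3. What these arrays had in common was not tested. With the replicate block the counts were 1268, 1734, 1545 and 211. The sign turned, in each case without a call, for *OPI1* without minimum CO2 replicate 2 (-0.1175 to 0.0135 with 1 array left out), for *INO2* with 1 array left out (-0.0678 to 0.0357), and without minimum CO2 replicates 1 and 3 for *STE3* (0.0111), *MF(ALPHA)2* (0.0009) and *HAC1* (-0.2769). Of the alternative values of named genes in the pooled comparison 2497 kept direction and side of the threshold, 107 lost the call, 4 gained it and 7 turned. For the difference between strains 726 kept both and 28 lost the call. The planned count of promoter motifs was not run, since no promoter sequence was used here.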
